A study of Mus musculus with 12 samples.

Results

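The Frizzled receptors are the family of cell surface receptors that bind Wnt proteins. Their transcripts were followed in muscle stem cells (MuSCs) with and without the E3 ubiquitin ligase Nedd4L, and in MuSCs and the myoblasts grown from them. The members are the genes named Fzd1 to Fzd10. Of these 10 genes, 9 had values in both deposited tables, which together list 17505 genes, and Fzd10 was not analysed here. Each library was made from the RNA of 1000 cells with SMART-seq, in which whole transcripts are copied to cDNA and amplified. In the culture comparison, MuSCs were sorted from 3 WT mice and cells of the same mice were grown for 3 days in Ham's F10 medium with serum and bFGF on collagen to give myoblasts. In the genotype comparison, the mice were males of 5 to 6 weeks, 3 of them WT and 3 Nedd4L-cKO, and MuSCs alone were sequenced. The Nedd4L-cKO mice carried Nedd4L fl/fl alleles and Cre recombinase at the Pax7 locus (Pax7 cre/+) on a C57BL/6 background, so exon 15 of Nedd4l was removed in every cell that had expressed Pax7, while the gene was still transcribed. The sources used here do not give the floxed or Cre alleles of the WT mice, nor the age of the mice of the culture comparison. All MuSCs were ITGA7+, Hoechst+, CD31-, CD45-, CD11b- and SCA1- cells of hindlimb muscle. Each library is 1 mouse and 1 condition, so n counts mice.

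Frizzled proteins cross the cell membrane several times and hold Wnt ligands in a cysteine-rich domain outside the cell. With the co-receptors Lrp5 and Lrp6 they signal through Dishevelled proteins to stabilise β-catenin, and without them they can act on cell polarity and movement. Cells control how much Frizzled stands at the surface: the ubiquitin ligases Znrf3 and Rnf43 remove it, R-spondins and their Lgr receptors oppose that removal, and Shisa proteins hold Frizzled back in the endoplasmic reticulum. In muscle, Fzd7 is known as a receptor for Wnt7a on satellite cells, where the proteoglycan Sdc4 and fibronectin (Fn1) join it, and Vangl2 acts with it in planar cell polarity. Fzd4 is also the receptor for Norrin, a ligand that is not a Wnt, together with the tetraspanin Tspan12.

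Upstream sequences are shown for Fzd4, the member with the largest fall in culture, and for Fzd1 and Fzd7, which rose, because the 3 genes lie far apart and carry different promoter sequence. The sequences are from RefSeq on GRCm38.p6 and run from 250 to 51 bases before the annotated start, 5′ to 3′ on the gene's strand. Capitals mark the GC box (GGGCGG), the CCAAT box (CCAAT) and the TATA box (TATAAA) wherever their letters occur on either strand, and adjoining matches run together.
Fzd4, chr7:89404116-89404315, + strand: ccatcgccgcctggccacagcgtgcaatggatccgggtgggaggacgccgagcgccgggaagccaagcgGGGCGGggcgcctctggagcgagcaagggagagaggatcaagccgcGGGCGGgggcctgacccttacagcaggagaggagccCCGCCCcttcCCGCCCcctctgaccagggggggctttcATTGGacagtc
Fzd1, chr5:4758267-4758466, - strand: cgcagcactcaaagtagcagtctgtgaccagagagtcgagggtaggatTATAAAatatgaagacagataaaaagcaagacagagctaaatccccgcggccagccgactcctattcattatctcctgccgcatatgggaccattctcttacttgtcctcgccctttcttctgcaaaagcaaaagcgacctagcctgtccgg
Fzd7, chr1:59481897-59482096, + strand: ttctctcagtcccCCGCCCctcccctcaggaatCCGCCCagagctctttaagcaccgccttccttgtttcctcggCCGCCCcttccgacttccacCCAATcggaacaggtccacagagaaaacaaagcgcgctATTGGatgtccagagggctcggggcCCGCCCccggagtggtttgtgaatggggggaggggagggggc
The promoter table matched 6 members, namely Fzd1, Fzd4, Fzd5, Fzd7, Fzd9 and Fzd10. In these 200-base windows, Fzd4 and Fzd7 each hold 4 GC boxes and Fzd5 holds 7, Fzd9 and Fzd10 hold 1 each and Fzd1 holds 0, against 24.6% of all 32851 such windows with at least 1. A CCAAT box occurs in Fzd4 and Fzd5 (1 match each) and Fzd7 (2 matches), and in 28.4% of all windows. Fzd1 alone of the 6 has a TATA box match, 202 bases before the start, a match that 9.14% of all windows have. The windows end 51 bases before the start, so a TATA box closer to the start would not be seen in any member. The E-box (CANNTG), which MyoD and related factors can bind, is found once in Fzd1, Fzd9 and Fzd10 and in 59.0% of all windows, and the Tead motif CATTCC in none of the 6 and in 10.7% of all. G and C make up 49% of the Fzd1 window and from 63.5% to 77.0% of the other 5, against a median of 51.5%. Fzd4, which fell in culture, and Fzd7, which rose, therefore have the same number of GC boxes in this window, and the members that rose differ among themselves.

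The Frizzled genes are spread over the genome (GENCODE on GRCm39). Fzd4 lies on chromosome 7 from 89053563 to 89062342 on the + strand, with 2 exons. Fzd1 (chromosome 5, 4803839 to 4808035, - strand), Fzd2 (chromosome 11, 102495222 to 102498884, + strand), Fzd8 (chromosome 18, 9212163 to 9218136, + strand) and Fzd9 (chromosome 5, 135277792 to 135280084, - strand) each have a single exon. Fzd7 (chromosome 1, 59521269 to 59534685, + strand) and Fzd5 (chromosome 1, 64769717 to 64776934, - strand) have up to 2 exons. Fzd6 (chromosome 15, 38869243 to 38901584, + strand) has up to 7 exons and Fzd3 (chromosome 14, 65429573 to 65499933, - strand) up to 8. Sequence shared among the receptors could split few reads between them, since at most 1.90% of the 31-base words of a member (Fzd2) occur in another Frizzled. With all other annotated genes, Fzd5 shares 17.4% of its 31-base words, Fzd7 12.02% and Fzd6 10.5%, and the other measured members at most 5.37%. SMART-seq does not keep the strand, and genes are annotated on the opposite strand over Fzd2, Fzd3, Fzd5, Fzd6, Fzd7 and Fzd9, introns included. Only reads from sequence shared with the transcripts of those genes cannot be told apart. The shares of 31-base words above count both strands. On their own strand, Fzd4 and Fzd3 each share their locus with a non-coding transcript (AI314278 and Gm54523, respectively).

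Levels were compared within each table, as RPM (normalized counts per 1000000 of the mean library total), since the tables were normalized separately. Normalized counts summed to between 33189802 and 50687122 per library, and reads could not be recovered from them, so the sequencing depth is unknown. Pax7 marked all MuSC libraries, with 249, 158 and 151 RPM in the culture comparison, and stood at 18.9, 21.2 and 17.8 RPM in the myoblasts. Myod1 stood at 167 to 188 RPM in those MuSCs and at 1000.04 to 1800.5 RPM in the myoblasts. Of markers of other cells, Ptprc (immune cells) reached at most 0.533 RPM and Pdgfra (fibro-adipogenic progenitors) at most 2.83 RPM in the 12 libraries. Other members of these lists were higher. The summed level of the 8 fibro-adipogenic markers was 2057 to 2261 RPM in MuSCs and 123 to 193 RPM in myoblasts, and 1747 to 2619 RPM in WT and 1557 to 3579 RPM in Nedd4L-cKO MuSCs. Of these, the collagen Col3a1 reached 1725 RPM and Dcn (decorin) 2208 RPM in single MuSC libraries. The listed immune markers summed to 3.20 to 5.62 RPM in MuSCs and 2.24 to 3.24 RPM in myoblasts. In the genotype comparison they summed to 2.79 to 39.1 RPM in WT, where Lyz2 was at 33.6 RPM in replicate 03, and to 1.92 to 9.59 RPM in Nedd4L-cKO libraries. The summed level of the 7 pericyte and smooth muscle markers was higher without overlap in myoblasts (1126 to 1421 RPM, then 1666 to 2430 RPM). It was also higher without overlap in Nedd4L-cKO MuSCs (1196 to 1943 RPM, then 2193 to 3269 RPM). Acta2 led these sums, in the genotype comparison together with Rgs5. Taken singly, 0 of the 7 were called higher in culture and 1 lower (limma adjusted p at most 0.05). Over all genes 22.2% were called higher and 20.6% lower. The lower gene of the 7 was Kcnj8, with means of 3.16 RPM in MuSCs and 0.0550 RPM in myoblasts. Between genotypes 0 of the 7 were called, beside 0.784% of all genes. The Schwann and glial markers, mostly Ncam1, which muscle cells also express, stood at 246 to 314 RPM in MuSCs and 648 to 1336 RPM in myoblasts, and at 179 to 244 RPM in WT and 184 to 220.2 RPM in Nedd4L-cKO MuSCs. The 8 myofiber markers went from 125 to 360 RPM in MuSCs to 8748 to 20016 RPM in myoblasts, and stood at 166 to 352 RPM in WT and 424 to 526 RPM in Nedd4L-cKO MuSCs. The part of these other cells in the results below was not tested.

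Freshly sorted MuSCs carried mainly Fzd4. Divided by the mean length of the annotated coding transcripts, Fzd4 stood at 17.3, 14.8 and 15.2 RPM per kilobase in the 3 MuSC libraries of the culture comparison. It made up 60.5%, 75.1% and 73.5% of the summed Frizzled level per kilobase, a mean of 69.7% ± 8.04 (SD, n = 3). The next receptor in order was Fzd1, with a mean of 2.19 ± 1.14 RPM per kilobase (SD, n = 3), below Fzd4 in all 3 libraries. Fzd9, Fzd7 and Fzd3 followed at means of 1.68, 1.22 and 1.16 RPM per kilobase, and from Fzd1 to Fzd3 the ranges of neighbours overlapped. Fzd8 (0.386 RPM per kilobase), Fzd5 (0.251), Fzd2 (0.236) and Fzd6 (0.101) were lowest, and each overlapped the next in this order. The WT MuSCs of the genotype comparison, from other mice and another table, showed the same first receptors. There Fzd4 stood at a mean of 11.7 RPM per kilobase and made up 57.9% ± 7.69 of the family (SD, n = 3), Fzd1 was again next (2.39), and Fzd2 and Fzd6 were again last. Fzd9 differed in place between the cohorts, being the third in the culture cohort and the sixth in the genotype cohort.

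**Figure D1:**
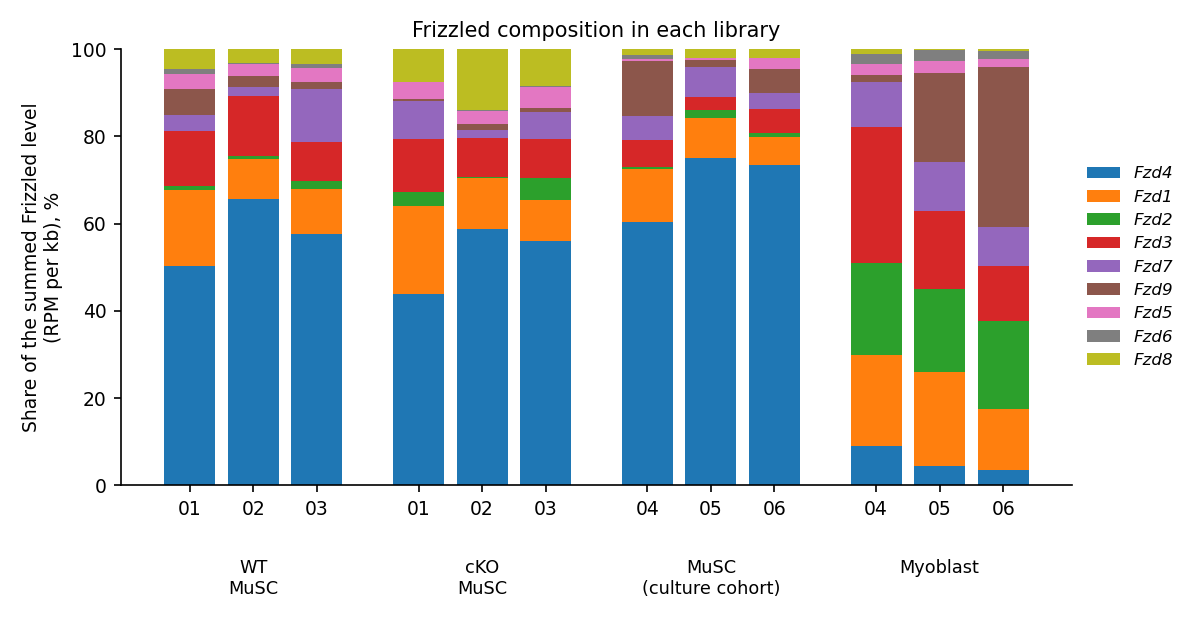
Share of each Frizzled receptor in the summed Frizzled level (RPM per kilobase of mean annotated transcript length), in percent, in each of the 12 libraries; numbers under the bars are replicates. Fzd4 takes 60.5% to 75.1% in the MuSCs of the culture cohort and 3.42% to 9.01% in the myoblasts, where no single receptor takes its place in all 3 libraries.

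In 3-day myoblasts the family was made up differently. Fzd4 was lower and Fzd1, Fzd2, Fzd3, Fzd5, Fzd6 and Fzd7 were higher than in the MuSCs of the same mice. Of the 9 receptors tested, 8 passed an adjusted p of at most 0.05 (limma, Benjamini-Hochberg over the 15345 genes tested), 6 higher and 2 lower. Over all tested genes 42.8% passed, 22.2% higher and 20.6% lower, so changes were common in this comparison. The groups did not overlap for the same 8 receptors (55.2% of all genes, 28.4% higher and 26.8% lower). Groups that do not overlap fix the direction in every mouse, so the 8 moved with their calls in 3 of 3 mice by necessity. The median log2 fold change over the 9 members was 1.48, against 0.039 over all genes. As these are bulk samples, fewer cells that express a receptor and less RNA per cell cannot be told apart.

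**Figure D2:**
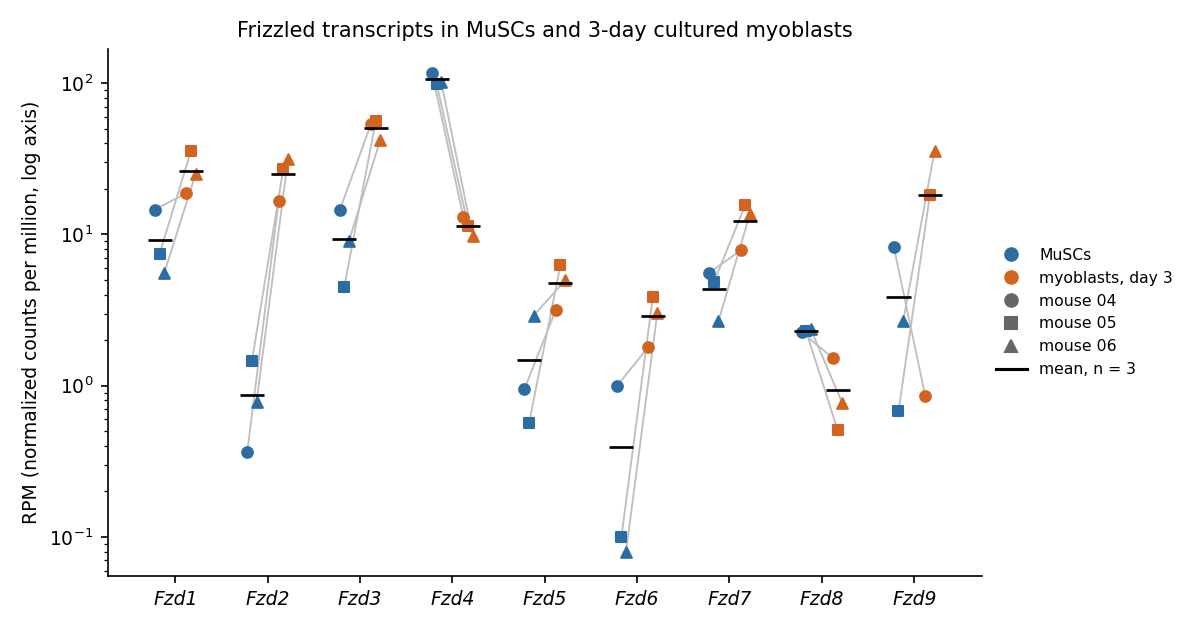
RPM (log axis) of the 9 measured Frizzled receptors in MuSCs (blue) and 3-day myoblasts (orange); symbols mark the mouse, grey lines join the libraries of a mouse and black bars are means (n = 3). Fzd4 drops from 99.2 to 116 RPM to 9.72 to 13.01 RPM in every mouse, Fzd2 rises from at most 1.45 RPM to at least 16.6 RPM, and the lines of Fzd9 cross.

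Fzd4 was at 116, 99.2 and 102 RPM in the MuSCs of mice 04, 05 and 06 and at 13.01, 11.4 and 9.72 RPM in their myoblasts. The mice were close to each other on both sides. Its mean was 9.29-fold lower in myoblasts, with a log2 fold change of -3.11 (SE 0.22, adjusted p = 1.56e-05 by limma). Its share of the family per kilobase was 5.60% ± 2.99 (SD, n = 3) in myoblasts, the sixth in order. Fzd4 is also a receptor of endothelial cells, so the endothelial markers are given beside it. The summed level of the listed endothelial markers (5 of 8) was 43.8 to 46.5 RPM in MuSCs and 11.8 to 21.7 RPM in myoblasts. Tek, the receptor for angiopoietins, gave most of this sum, at 34.8, 28.9 and 25.6 RPM in MuSCs and 0.921, 0.275 and 0.0365 RPM in myoblasts. Cdh5, which defines endothelium, was at 0, 0 and 0.324 RPM in MuSCs, and Pecam1, which encodes the CD31 antigen sorted against, at 9.45 to 15.95 RPM there and 7.48 to 12.8 RPM in myoblasts. Of the 4 endothelial markers tested, Tek was the 1 that passed, beside 42.8% of all genes. Egfl7 was at 1.74, 1.38 and 2.05 RPM in MuSCs and 7.41, 3.66 and 2.16 RPM in myoblasts, and Flt1 at 0.448, 0.165 and 0.280 RPM and then 0.530, 0.267 and 0.377 RPM. The part of endothelial RNA in the fall of Fzd4 was not tested.

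Fzd2, a receptor known for Wnt5a signalling, rose from 0.367, 1.45 and 0.778 RPM in MuSCs to 16.6, 27.1 and 31.3 RPM in myoblasts. It was among the lowest receptors of MuSCs and was next after Fzd9 per kilobase in myoblasts, at 6.83 ± 2.06 RPM per kilobase (SD, n = 3). Its mean was 28.9-fold higher, with a log2 fold change of 3.80 (SE 0.37, adjusted p = 8.72e-05 by limma). Fzd3, which works with Celsr and Vangl proteins in planar cell polarity, rose from 14.4, 4.51 and 9.03 RPM to 53.9, 55.8 and 42.2 RPM. That was 5.43-fold by the means (log2 fold change 2.43, SE 0.38, limma adjusted p = 0.00108). Fzd6, the closest relative of Fzd3 in polarity signalling, stayed low, with 0.993, 0.0996 and 0.0799 RPM in MuSCs and 1.80, 3.86 and 3.05 RPM in myoblasts. Its log2 fold change was 1.51 (SE 0.33, adjusted p = 0.00646 by limma). Fzd6 met the filter on low counts only through the myoblasts, since 2 MuSC libraries held 3.51 and 2.82 normalized counts.

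Fzd1, which signals to β-catenin, rose from 14.6, 7.43 and 5.54 RPM to 18.7, 35.5 and 25.0 RPM. The increase was smaller in mouse 04 than in the other mice, by log2 changes of 0.34, 2.12 and 1.99 in mice 04, 05 and 06. Over all mice the log2 fold change was 1.48 (SE 0.39, adjusted p = 0.0150 by limma). Fzd7, the receptor for Wnt7a on satellite cells, rose from 5.56, 4.81 and 2.66 RPM to 7.84, 15.6 and 13.6 RPM. It too rose least in mouse 04 (log2 changes 0.43, 1.51 and 2.00), and its log2 fold change was 1.31 (SE 0.38, adjusted p = 0.0215 by limma). Fzd5 rose from 0.951, 0.565 and 2.90 RPM to 3.16, 6.26 and 4.96 RPM, with MuSC replicate 06 close to the myoblasts. Its log2 fold change was 1.31 (SE 0.42, adjusted p = 0.0325 by limma).

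Fzd8 was low in both, at 2.26, 2.29 and 2.37 RPM in MuSCs and 1.52, 0.511 and 0.772 RPM in myoblasts. The myoblast values rest on 18.0 to 53.7 normalized counts per library. Its log2 fold change was -0.81 (SE 0.28, adjusted p = 0.0429 by limma), and with the mouse as a replicate block the adjusted p was 0.0645. Fzd9 did not move the same way in all mice. It was at 8.22, 0.678 and 2.66 RPM in MuSCs and at 0.855, 18.2 and 35.4 RPM in myoblasts, so that it was lower after culture in mouse 04 and higher in mice 05 and 06. Its log2 fold change of 1.51 (SE 1.04) had an adjusted p of 0.268 (limma). Without myoblast replicate 04 it was 2.78, with an adjusted p of 0.0115.

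The fold changes of Fzd2, Fzd3, Fzd4 and Fzd6 passed whichever single library was left out (limma adjusted p at most 0.0328 for these 4). Of these, Fzd6 met the filter on low counts only through the myoblasts, the group where it was high. The other calls depended on single libraries, with adjusted p-values of up to 0.0681 for Fzd1, 0.115 for Fzd5, 0.0876 for Fzd7 and 0.168 for Fzd8. The number of receptors that passed was 5 without MuSC replicate 05, 5 without MuSC replicate 06, 4 without myoblast replicate 05 and 5 without myoblast replicate 06. With a fold of at least 1 on the log2 scale and a mean level of at least 5 RPM required as well, 5 passed, beside 25.2% of all genes.

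**Figure D3:**
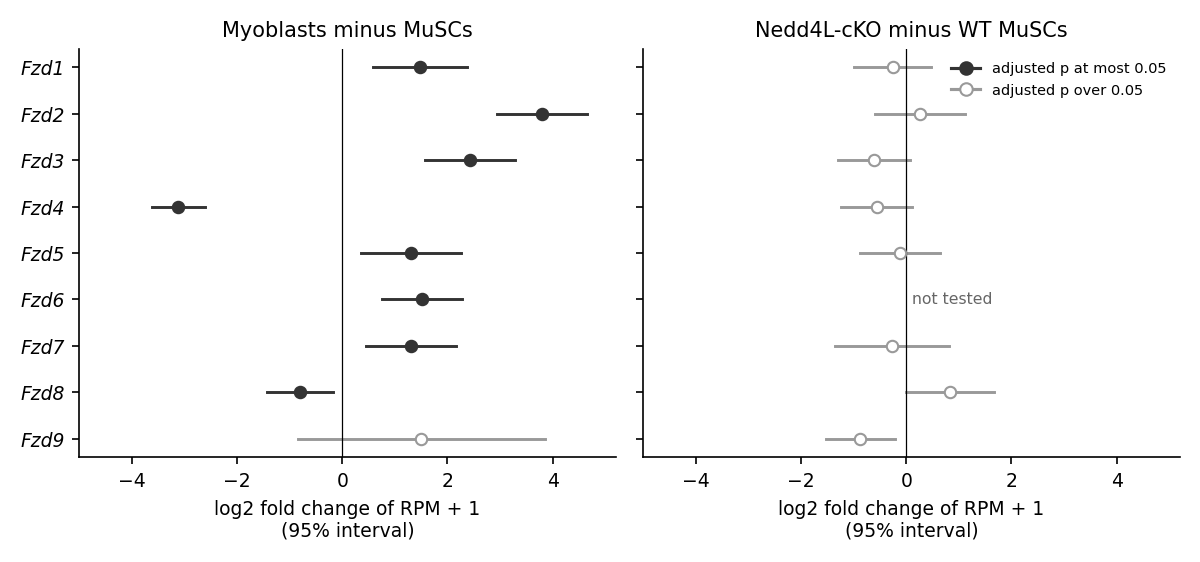
Log2 fold changes of RPM + 1 with 95% intervals (limma, 3 libraries per group) for myoblasts minus MuSCs (left) and Nedd4L-cKO minus WT MuSCs (right); filled dark symbols passed an adjusted p of at most 0.05. On the left 8 of 9 receptors passed, with Fzd4 at -3.11 and Fzd2 at 3.80, and on the right 0 of 8.

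Per kilobase, the order of the receptors in myoblasts was Fzd9, Fzd2, Fzd3, Fzd1, Fzd7, Fzd4, Fzd5, Fzd6 and Fzd8. The first 4 had means of 7.92, 6.83, 6.31 and 6.29 RPM per kilobase and each overlapped the next in this order, with Fzd9 between 0.373 and 15.5. Fzd1 was above Fzd7 (3.46) and Fzd7 above Fzd4 (1.69) in all 3 libraries, without overlap. The summed level of the 9 receptors was 28.6, 19.6 and 20.6 RPM per kilobase in MuSCs and 21.5, 39.0 and 42.2 in myoblasts, lower after culture in mouse 04 and higher in the other mice.

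The rest of the Wnt pathway was read from 14 lists with 100 genes besides the receptors. Wnt7a, Norrin (Ndp) and Rnf43 were among the listed genes that had no values in either comparison. In culture, 40 of the 70 genes tested passed, 21 higher and 19 lower, beside 42.8% of all genes. Their median log2 fold change was -0.10. Whichever library was left out, 33 of the 40 still passed. The calls of Axin1, Lrp6, Porcn, Prickle3, Sfrp2, Sfrp4 and Vangl1 were lost without at least 1 library, with adjusted p-values (limma) of up to 0.115, 0.0720, 0.0827, 0.105, 0.0717, 0.124 and 0.108, respectively.

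**Figure D4:**
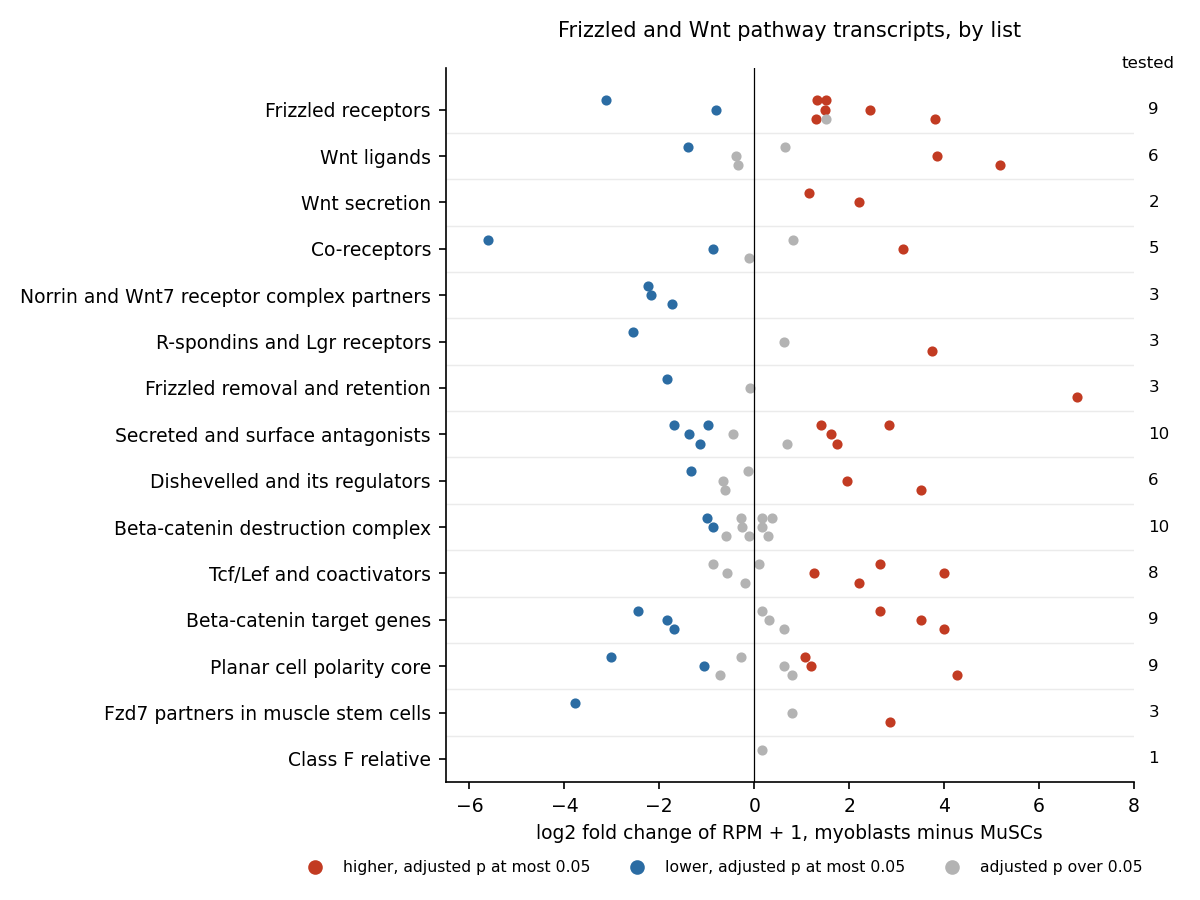
Log2 fold changes of RPM + 1 (myoblasts minus MuSCs) of the Frizzled receptors and of the tested genes of each Wnt pathway list, coloured by call (limma adjusted p at most 0.05); the column at the right gives the number tested, and a gene in more than 1 list is drawn in each. The 3 tested partners of the Norrin and Wnt7 receptor complexes are all lower, from -2.24 to -1.72, beside 20.6% of all genes called lower. Shisa2 stands highest at 6.79.

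Among the ligands, 3 of the 6 tested passed, beside 42.8% of all genes (22.2% higher and 20.6% lower). Wnt7b, a ligand of the Reck and Adgra2 receptor complex, was listed at 0 in all 3 MuSC libraries and stood at 51.3, 42.7 and 19.7 RPM in myoblasts (limma adjusted p = 2.38e-05). Wnt9a rose from 0.856, 0.743 and 1.88 RPM to 27.4, 34.5 and 27.1 RPM (log2 fold change 3.86, SE 0.33, adjusted p = 3.9e-05). Wnt4 fell from 10.7, 4.55 and 6.09 RPM to 2.04, 1.84 and 1.88 RPM (log2 fold change -1.40, adjusted p = 0.0126). Both genes of Wnt secretion rose, the Wnt acyltransferase Porcn by a log2 fold change of 1.16 (adjusted p = 0.0187) and the Wnt carrier Wls by 2.20 (adjusted p = 3.15e-05). Wls stood at 54.9, 66.6 and 63.7 RPM in MuSCs and at 257, 311 and 294 RPM in myoblasts.

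The partners of Fzd4 were lower with it. Tspan12, its partner in Norrin signalling, was at 817, 813 and 618 RPM in MuSCs and 216, 153 and 135 RPM in myoblasts (log2 fold change -2.17, SE 0.22, limma adjusted p = 0.000111). Adgra2 and Reck, which form a Wnt7 co-receptor complex with Fzd4, had log2 fold changes of -2.24 (adjusted p = 0.000809) and -1.72 (adjusted p = 0.00713). Adgra2 was at 17.9, 11.0 and 13.3 RPM and then 2.05, 2.83 and 1.61 RPM, and Reck at 9.47, 4.32 and 9.50 RPM and then 0.906, 2.19 and 1.67 RPM. All 3 of the genes tested in this list were lower without overlap, beside 26.8% of all genes.

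Of the other co-receptors, 3 of 5 tested passed, beside 42.8% of all genes. Ror1, a receptor tyrosine kinase that binds Wnt5a, was at 95.2, 59.2 and 69.3 RPM in MuSCs and 0.186, 0.422 and 1.13 RPM in myoblasts (log2 fold change -5.60, limma adjusted p = 7.66e-06). Ptk7, a polarity co-receptor, went the other way, from 5.17, 3.69 and 4.98 RPM to 51.3, 66.0 and 31.8 RPM (3.13, adjusted p = 0.000134). Lrp6 fell by 0.87 on the log2 scale, from 55.7, 34.00 and 44.0 RPM to 20.4, 26.2 and 24.1 RPM (adjusted p = 0.0235, and 0.0535 with the replicate block). Smo, the Frizzled relative that transduces Hedgehog signals, had a log2 fold change of 0.16 (95% interval -0.43 to 0.75, adjusted p = 0.65).

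Genes that set how much Frizzled reaches the surface moved in both directions. Shisa2, which retains immature Frizzled, rose from 0.305, 4.87 and 1.71 RPM to 220.5, 379 and 332 RPM (log2 fold change 6.79, SE 0.50, limma adjusted p = 1.84e-05). Znrf3, which removes Frizzled from the surface, fell from 113, 94.5 and 109 RPM to 30.8, 25.8 and 29.5 RPM (-1.84, adjusted p = 0.000143). Of its regulators, the R-spondin receptor Lgr4 fell from 76.5, 31.6 and 48.8 RPM to 4.82, 8.82 and 9.78 RPM (-2.56, adjusted p = 0.000899) and Lgr6 rose from 1.28, 0.410 and 0.855 RPM to 8.31, 63.3 and 22.8 RPM (3.74, adjusted p = 0.00162).

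Secreted and surface antagonists were split, with 4 higher and 4 lower of 10 tested, beside 22.2% higher and 20.6% lower of all genes. Kremen1 and Kremen2, which take Lrp6 off the surface with Dkk proteins, rose by log2 fold changes of 1.74 and 2.83 (limma adjusted p = 0.00183 and 0.000238). Wif1 and Sost, listed at 0 in the MuSC libraries of this comparison, reached 0.768 to 3.43 RPM and 1.04 to 2.62 RPM in myoblasts. In the genotype comparison Sost had no values. Wif1 stood there at 12.8, 0.0599 and 2.08 RPM in WT and 6.58, 0 and 0.520 RPM in Nedd4L-cKO MuSCs. Sfrp2 and Sfrp4, soluble proteins with a Frizzled-like domain, fell by 1.36 and 0.98 on the log2 scale (adjusted p = 0.0149 and 0.0385, the latter 0.0657 with the replicate block). Dkk2 fell by 1.15 and the Wnt deacylase Notum by 1.70 (adjusted p = 0.00894 and 0.00986), all from levels of at most 5.00 RPM.

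Inside the cell, Dvl2 rose from 5.35, 4.91 and 4.00 RPM to 20.7, 24.1 and 19.3 RPM (log2 fold change 1.96, limma adjusted p = 0.000723). Dvl3, another Dishevelled, fell from 388, 198 and 189 RPM to 67.3, 115 and 115 RPM (-1.33, adjusted p = 0.0103). Of the 10 genes of the β-catenin destruction complex, 2 passed, beside 42.8% of all genes. They were Gsk3b (-0.86, adjusted p = 0.00926) and Axin1 (-1.003, adjusted p = 0.0383, and 0.0647 with the replicate block). β-catenin itself (Ctnnb1) was at 315, 198 and 205 RPM in MuSCs and 344, 314 and 258 RPM in myoblasts, with adjusted p = 0.211. Of the 8 Tcf/Lef genes and coactivators, 4 rose and 0 fell, beside 22.2% higher and 20.6% lower of all genes. Lef1 rose from 0.574, 0.981 and 0.483 RPM to 33.9, 24.3 and 20.7 RPM (4.01, adjusted p = 3.15e-05), and Tcf7, Pygo2 and Tcf7l2 rose by 2.65, 2.20 and 1.26.

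Target genes of β-catenin did not move together, with 3 higher and 3 lower of 9 tested, beside 22.2% higher and 20.6% lower of all genes. Lef1 and Tcf7 were higher, as was Nkd1, a feedback inhibitor (log2 fold change 3.52, limma adjusted p = 0.00978). Myc fell from 623, 447 and 337 RPM to 104, 87.3 and 60.6 RPM (-2.45, adjusted p = 0.000195), and Notum and Znrf3 were lower. Axin2, singled out after its values were seen because it is a widely used reporter of the pathway, stayed at or below 0.839 RPM in all 6 libraries.

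In the planar cell polarity list, 3 genes rose and 2 fell of 9 tested, beside 22.2% higher and 20.6% lower of all genes. Scrib rose from 10.7, 7.73 and 8.98 RPM to 101, 210 and 340.1 RPM (log2 fold change 4.27, limma adjusted p = 6.64e-05), Vangl1 by 1.19 (adjusted p = 0.0261) and Celsr3 by 1.07 (adjusted p = 0.00258). Prickle2 fell from 6.58, 23.6 and 22.2 RPM to 0.814, 1.21 and 1.03 RPM (-3.02, adjusted p = 0.00113) and Prickle3 by 1.07 (adjusted p = 0.0282). Of the genes that work with Fzd7 in satellite cells, Sdc4 fell from 4180, 2589 and 3148 RPM to 287, 236 and 197 RPM (-3.77, adjusted p = 6.83e-06). Fn1 rose from 12.3, 12.4 and 15.6 RPM to 91.8, 119.9 and 99.2 RPM (2.86, adjusted p = 2.55e-05), and Vangl2 had 11.8, 8.89 and 12.6 RPM and then 33.0, 16.6 and 13.96 RPM, with an adjusted p of 0.107.

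The genotype comparison asked what the loss of Nedd4L does to these transcripts in freshly sorted MuSCs. The targeted gene, Nedd4l, was at 70.2, 96.4 and 66.7 RPM in WT MuSCs and 30.2, 36.3 and 22.5 RPM in Nedd4L-cKO MuSCs, lower without overlap (log2 fold change -1.37, SE 0.28, limma adjusted p = 0.0467). With each library left out in turn its adjusted p ran from 0.0587 to 0.210. Of the 8 Frizzled receptors tested, 0 passed an adjusted p of at most 0.05 (limma over 15304 genes), where 0.784% of all genes passed (0.523% higher and 0.261% lower), and 1 had an unadjusted p under 0.05 (14.6% of all genes). For 3 of the 8 the groups did not overlap, 2 lower and 1 higher, beside 19.3% of all genes (9.59% lower and 9.75% higher). The median log2 fold change over the 8 was -0.27, against 0.0015 over all genes. In Fzd6 the values were below the filter on low counts, with 0.899, 0.0722 and 0.607 RPM in WT and 0.0454, 0.153 and 0.132 RPM in Nedd4L-cKO MuSCs.

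**Figure D5:**
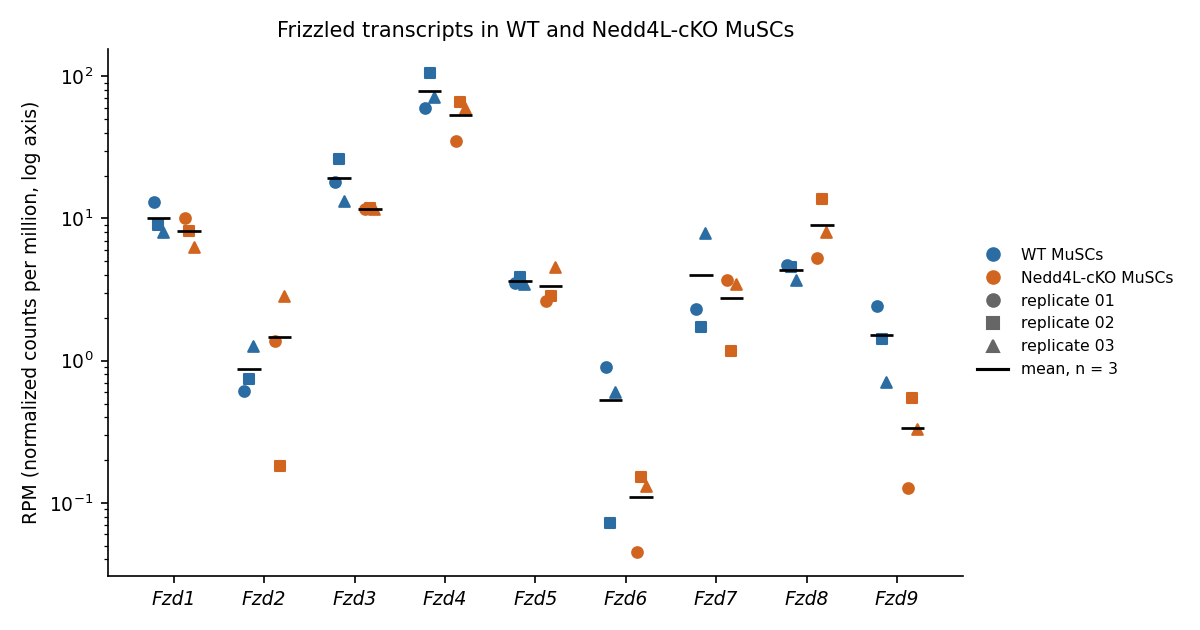
RPM (log axis) of the 9 measured Frizzled receptors in WT (blue) and Nedd4L-cKO (orange) MuSCs; symbols mark the replicate number, which names different mice in the 2 genotypes, and black bars are means (n = 3). The genotypes overlap for all receptors except Fzd3 and Fzd9, where every Nedd4L-cKO library lies below every WT library, and Fzd8, where every one lies above.

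Fzd4 was at 60.3, 105 and 71.2 RPM in WT and 35.0, 65.7 and 59.9 RPM in Nedd4L-cKO MuSCs, so the genotypes overlapped. Its log2 fold change was -0.56 (95% interval -1.24 to 0.12, limma adjusted p = 0.435), which leaves out a fall as large as that seen in culture. It remained the first receptor in all 6 libraries per kilobase, with a share of 52.9% ± 7.97 (SD, n = 3) of the family in Nedd4L-cKO MuSCs. Beside it, the summed level of the 4 listed endothelial markers was 58.0 to 104 RPM in WT and 41.0 to 74.8 RPM in Nedd4L-cKO libraries, with Tek at 40.9, 79.6 and 59.6 RPM and then 19.1, 28.4 and 21.6 RPM. Flt1 went the other way without overlap, from 0.576, 0.387 and 0.378 RPM to 1.71, 0.678 and 2.40 RPM, and Pecam1 overlapped, at 15.05, 23.7 and 17.4 RPM and then 19.7, 25.7 and 49.9 RPM. Of the 4 markers 0 passed, beside 0.784% of all genes, and their median log2 fold change was 0.31.

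Fzd3 was at 18.1, 26.1 and 13.2 RPM in WT and 11.7, 11.8 and 11.6 RPM in Nedd4L-cKO MuSCs. The mutant values lay close together, all below the lowest WT value, and the log2 fold change was -0.61 (SE 0.32, adjusted p = 0.401 by limma). Fzd9 was at 2.43, 1.42 and 0.706 RPM in WT and 0.127, 0.546 and 0.330 RPM in Nedd4L-cKO MuSCs (log2 fold change -0.87, SE 0.30, limma adjusted p = 0.213), and it was the receptor with an unadjusted p under 0.05. Fzd8 was at 4.72, 4.57 and 3.69 RPM in WT and 5.29, 13.8 and 8.04 RPM in Nedd4L-cKO MuSCs (log2 fold change 0.83, SE 0.38, limma adjusted p = 0.345). With 3 mice against 3 the exact two-sided permutation test of any of these cannot go below p = 0.1, which all 3 reached.

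The remaining receptors overlapped between genotypes. Fzd1 was at 12.97, 9.01 and 8.10 RPM in WT and 10.1, 8.12 and 6.33 RPM in Nedd4L-cKO MuSCs (log2 fold change -0.26, 95% interval -0.99 to 0.47). Fzd7 varied most among WT mice, with 2.32, 1.74 and 7.91 RPM, against 3.71, 1.17 and 3.44 RPM in Nedd4L-cKO MuSCs (-0.28, 95% interval -1.36 to 0.81). Fzd5 was at 3.49, 3.89 and 3.48 RPM and 2.63, 2.85 and 4.55 RPM (-0.11, 95% interval -0.87 to 0.65), and Fzd2 at 0.612, 0.744 and 1.27 RPM and 1.38, 0.182 and 2.86 RPM (0.26, 95% interval -0.60 to 1.11). The adjusted p-values of these 4 ran from 0.767 to 0.907 (limma). Left out one at a time, single libraries turned the sign of the difference for Fzd2, Fzd5 and Fzd7. The summed level of the measured receptors was 17.8, 23.8 and 18.4 RPM per kilobase in WT and 11.9, 16.6 and 15.9 in Nedd4L-cKO MuSCs. This sum was lower without overlap, with Fzd4 its largest part, and the difference was not tested.

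Of the other Wnt pathway genes, 0 of the 73 tested passed in this comparison (limma), and 11 had an unadjusted p under 0.05, beside 14.6% of all genes. Among them Dvl3 was at 157, 167 and 73.2 RPM in WT and 22.9, 35.4 and 73.4 RPM in Nedd4L-cKO MuSCs (log2 fold change -1.64, adjusted p = 0.111), and without Nedd4L-cKO replicate 03 it was the 1 gene that passed. Ryk, a Wnt receptor with a pseudokinase domain, was at 21.1, 22.6 and 30.1 RPM in WT and 44.6, 46.6 and 52.2 RPM in Nedd4L-cKO MuSCs without overlap (0.95, adjusted p = 0.127). Tspan12 (-0.15), Ctnnb1 (0.21), Sdc4 (-0.74) and Znrf3 (-0.44) had adjusted p-values from 0.511 to 0.815. Myc was at 614, 416 and 317 RPM and 162, 249 and 295 RPM (-0.92, adjusted p = 0.208).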

How the data were processed

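SMART-seq libraries of 1000 cells were grouped by the labels into WT and Nedd4L-cKO MuSCs, and WT MuSCs and 3-day myoblasts of the same mice, with 3 libraries in each of the 4 groups. The authors sequenced single-end reads, quantified them with Kallisto 0.46.1 (the version is also in the submitters' processing notes) on the GENCODE M28 basic annotation, then added them up per gene (tximport) and normalized with DESeq2. The deposited values used here are a signal: estimated counts after division, by the authors, by normalization factors that differ between genes and libraries. Each comparison has a table of its own. Of the values below 30 in a library, at most 61.8% lay within 0.02 of a whole multiple of a single step, so reads were not recovered and no count model was run. The authors' fold changes, p-values, RPM columns and the repeated columns named as counts were not used.

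For RPM, the normalized counts of a table were divided by the mean of its 6 library totals and multiplied by 1000000. A gene was tested where 3 or more libraries held 10 or more normalized counts, on log2(RPM + 1) with limma 3.58.1 in R 4.3.3 (lmFit, eBayes with trend and robust), each table alone, with a term for group and no other. Some genes met this filter only through the group where they were high, in culture among others Fzd6, Wnt7b, Wif1, Sost, Celsr3 and Nkd1 through the myoblasts. P-values were adjusted by Benjamini-Hochberg across the tested genes, with calls at 0.05 or below. This scale understates changes of genes near 0. The step was tried on simulated data with the same spread for all genes and changes only in genes of higher level. Those data do not cover receptors with low counts, such as Fzd6. Levels per kilobase used the mean length of basic coding transcripts in GENCODE M39 on GRCm39, a later release than the authors used.

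The libraries of the culture comparison are paired by mouse, per the study's design. Deviations of same-mouse libraries from their group means correlated at -0.0314, -0.00502 and 0.0180. Same-numbered libraries of the genotype comparison are different mice. The mouse or replicate number as a block, own library totals, RLE factors, a pseudocount of 0.1 RPM, other filters, limma without trend, a fold and level threshold and each library left out in turn were tried as alternatives. The members and lists were chosen with earlier results of these data known. The text names all members, listed pathway genes that passed with groups that did not overlap, the genes of highest RPM in lists where few passed, and markers of other cells as list sums with single members beside them. Neither batches nor dates are in the labels, and none were examined. Plots were drawn with Python 3.11.15 and matplotlib 3.10.9.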

Additional observations from a re-analysis of the deposited data

How the results depend on the processing

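In the culture comparison, 8 Frizzled receptors passed. A further threshold on fold (1 on the log2 scale) and level (5 RPM) left 5 of them, Fzd1, Fzd2, Fzd3, Fzd4 and Fzd7. Leaving out single libraries gave from 4 to 9. The fall of Fzd8 was the weakest call. It was lost with own library totals (adjusted p = 0.0601), a pseudocount of 0.1 RPM (0.0665), without the filter on low counts (0.0515) and in 5 of the 6 fits that left out a library. With the mouse as a replicate block, 7 receptors and 37 pathway genes passed, all but Fzd8, Axin1, Lrp6 and Sfrp4 of those that passed without it. Under the other settings the number of pathway genes stayed within 1.5 times the 40 reported. Scaling each library to its own total moved the median log2 fold change of all genes in culture from 0.039 to 0.143. Over the alternative fits of single receptors in culture, 96 stayed on the same side of the threshold, 19 lost the call and 1 gained it (Fzd9), and 0 changed direction.

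In the genotype comparison, 0 receptors and 0 pathway genes passed with or without the replicate number as a block, and 0 to 1 pathway genes with each library left out (Dvl3 without Nedd4L-cKO replicate 03). Leaving out single libraries, the log2 fold change of Fzd2 ran from -0.15 (without Nedd4L-cKO replicate 03) to 0.71, and that of Fzd5 from -0.30 to 0.0029 (without Nedd4L-cKO replicate 01). That of Fzd7 ran from -0.61 to 0.24 (without WT replicate 03), and was 0.081 without Nedd4L-cKO replicate 02. The causes were not tested. Same-numbered libraries of this comparison had correlations of their deviations of 0.0192, -0.0232 and -0.181. For Fzd2, Fzd6 and Fzd9 low normalized counts limit the values.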

Other observations

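One myoblast library, replicate 04, stood apart from the other myoblasts in several Wnt genes, which were picked after their values were seen. Nkd1 was at 1.31 RPM there and at 27.3 and 26.2 RPM in replicates 05 and 06. Wnt11 was at 0.152 RPM there and at 6.17 and 6.32 RPM in the others, and Wnt5a at 0.187 RPM against 8.46 and 5.21 RPM. Prickle1 was at 2.12 RPM there and at 11.0 and 11.1 RPM in the others, and Lgr6 at 8.31 RPM against 63.3 and 22.8 RPM. The difference in Fzd9, at 0.855 RPM there and at 18.2 and 35.4 RPM in the others, lies in the same library. Myod1 was highest in it, at 1800.5 RPM against 1336 and 1000.04 RPM, as were the mitotic genes Cdk1 (254 RPM against 154 and 99.9) and Ccnb1 (321 RPM against 264 and 138). Mki67 (64.6 RPM against 102 and 49.2) and Top2a (158 RPM against 177 and 102), also genes of dividing cells, were not highest in this library. The genes of contractile fibers were lowest in it, with Myh3 at 435 RPM against 1521 and 2644 RPM, Myh1 at 111 RPM against 842 and 1341 RPM and Mylpf at 564 RPM against 1055 and 1789 RPM. Their part in the Wnt gene values was not tested. The total of normalized counts of this library, 34135885, lay near the 33189802 and 33349683 of the others. Wnt5a and Prickle1 did not pass in culture, and Wnt11 did not meet the filter on low counts and was not tested.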
